A study of Homo sapiens with 4 samples.

Results

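The miR-23/27/24 clusters are a pair of short genomic clusters that encode closely related microRNAs (miRNAs), and 10 of the 826 mature miRNA names counted in H661 cells belong to them. Members were taken by name: every row that is miR-23a, miR-23b, miR-27a, miR-27b or miR-24 once the species prefix, arm suffix and copy number are removed. H661 is a long-established cell line grown from a large cell carcinoma of the human lung. The entinostat group had 2 libraries from cells treated with entinostat at 2.5 µM for 8 h, and the DMSO group had 2 libraries from cells treated with the solvent DMSO for the same time. Entinostat is a benzamide that inhibits class I histone deacetylases, and the comparison asks how the level of each miRNA differs between these treatments. All cells were of this line in RPMI1640 medium with 10% FBS, and the labels do not say whether replicates were separate cultures, so the p-values reflect library-to-library spread, which may be technical.

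A miRNA cluster is transcribed as 1 long RNA, which Drosha and Dicer cut into hairpins and then into short duplexes. Usually 1 arm of a duplex, the guide, is loaded into Argonaute and the other, the passenger, is degraded. The guide finds target mRNAs mainly through its seed, bases 2 to 8. For all of miR-23, miR-27 and miR-24 the 3p arm is the usual guide. In earlier work miR-23 was linked to glutaminase and to E-cadherin loss in lung cancer cells, miR-27 to FOXO1 and PPARG, and miR-24 to cell cycle genes and the DNA damage protein H2AX.

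The sequences below show how alike the members are, with the seed in capitals (mature RNA, 5′ to 3′, RefSeq, GRCh38.p14). All 10 members had a RefSeq sequence, of 21 to 23 bases.
miR-23a-3p: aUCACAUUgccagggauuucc
miR-23b-3p: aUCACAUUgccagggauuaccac
miR-27a-3p: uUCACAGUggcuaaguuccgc
miR-27b-3p: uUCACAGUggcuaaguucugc
miR-24-3p: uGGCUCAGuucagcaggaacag
miR-23a-5p: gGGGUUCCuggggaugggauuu
miR-23b-5p: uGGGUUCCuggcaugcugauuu
miR-27a-5p: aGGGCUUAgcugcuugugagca
miR-27b-5p: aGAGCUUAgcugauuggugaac
miR-24-2-5p: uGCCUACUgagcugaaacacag

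The 3p arms of miR-23a and miR-23b share their seed and differ by the substitution U19A, counted from 1 at the 5′ end of miR-23a-3p, and by 2 extra bases at the 3′ end of miR-23b-3p. Likewise miR-27a-3p and miR-27b-3p share their seed and differ by C19U. The seeds of miR-23a-3p and miR-27a-3p differ by U7G alone. On the 5p side, miR-23a-5p and miR-23b-5p share a seed, whereas the seeds of miR-27a-5p and miR-27b-5p differ by G3A. Over the 22 positions compared, the 5p pairs differ at 7 for miR-23 and at 8 for miR-27. Reads of these paralogs, above all of the 3p pairs, could have been split between names, and the counting rule is not given in the sources used here. Of the 826 listed names, 729 had a mature sequence in the table, and among these no other miRNA had a member's seed at bases 2 to 8.

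The hairpins of miR-23a, miR-27a and miR-24-2 lie on the minus strand at chr19:13836287-13836659, a span of 373 bases, inside an exon of the non-coding gene AC020916.1, of biotype antisense (GENCODE release 29, GRCh38). Those of miR-23b, miR-27b and miR-24-1 lie on the plus strand at chr9:95085208-95086088, a span of 881 bases, within the protein-coding gene C9orf3. In that annotation MIR23B and MIR27B overlapped none of its exons and MIR24-1 lay inside one. The authors' build is not given in the sources used here, so these positions come from the reference. The 3p arm of miR-24 is identical from both hairpins, so its count cannot be assigned to a chromosome.

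Totals ran from 547875 to 938559 miRNA counts per library. Each level is a CPM value: the count divided by the library's TMM-scaled size (trimmed mean of M-values) and multiplied by 1000000. Shares use unscaled counts. The ligation and PCR steps of library making recover sequences unequally, so a level compares a miRNA best with itself. Intervals of shares are exact Clopper-Pearson 95% intervals and cover counting error only, since PCR copies are not independent molecules. In RNA from a whole culture, a larger change in some cells and a smaller one in all cells cannot be told apart. Epithelial marker miRNAs of the miR-200 and miR-205 groups were summed over the 3 of 6 that could be looked up. They came to 58.4 and 51.8 unscaled CPM with entinostat and to 36.2 and 28.5 with DMSO. These sums rest on 16 to 39 counts per library, most of them miR-200c-3p, with miR-200b-3p at 0 in 3 of 4 libraries. Markers of blood, liver and muscle summed to 198.95 and 249.6 unscaled CPM with entinostat and to 245.1 and 222.6 with DMSO, over the 4 of 8 that could be looked up, nearly all of it miR-486-5p, with miR-122-5p at 0 in 3 libraries. The part of these markers in the results below was not tested.

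H661 cells expressed the members as a moderately abundant group led by miR-24-3p and miR-23a-3p. Together the 10 members made up 3.25% (3.20 to 3.30%) and 3.22% (3.18 to 3.26%) of counts in the entinostat libraries, against 2.73% (2.70 to 2.77%) and 3.06% (3.01 to 3.10%) in the DMSO libraries. Both entinostat libraries lay above both DMSO libraries, by 0.337 percentage points on average, or 0.176 points without DMSO replicate 1 and 0.498 points without DMSO replicate 2. The two-sided exact permutation test gave p = 0.333, the smallest that 2 libraries against 2 allow, and 0.429 after Benjamini-Hochberg adjustment over the 9 shares tested in this way. The DMSO libraries differed from each other by 0.322 points and the entinostat libraries by 0.0326 points.

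The most abundant member, miR-24-3p, whose count pools both clusters, stood at rank 12 of all 826 names by mean level. It had 16761 and 14149 CPM with entinostat, against 13388 and 15289 CPM with DMSO. The treatments overlapped, because entinostat replicate 2 fell below DMSO replicate 2. Next came hsa-miR-23a-3p at rank 24, with 7771 and 9617 CPM with entinostat and 6658 and 7594 CPM with DMSO. Here both entinostat libraries exceeded both DMSO libraries, but entinostat replicate 1 was only slightly above DMSO replicate 2.

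The 3p arms of miR-27 were nearly equal to each other and lay between 2459 and 3136 CPM. For miR-27a-3p the level was 3136 and 2730.1 CPM with entinostat, against 2757 and 2875 CPM with DMSO. Its paralog hsa-miR-27b-3p had 2651 and 2749.8 CPM with entinostat, against 2459 and 2494 CPM with DMSO. The treatments overlapped for miR-27a-3p and did not for miR-27b-3p, whose 4 values were the tightest among members of 1000 CPM or more. Below them, miR-23b-3p had 1312 and 1727 CPM with entinostat and 1343 and 1432 CPM with DMSO. Its entinostat libraries enclosed both DMSO libraries.

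Among the passenger arms, hsa-miR-27a-5p stood out by its level. It reached 879.8 and 733 CPM with entinostat, against 668 and 675 CPM with DMSO, with no overlap. The level of hsa-miR-24-2-5p, the 5p arm made from the chromosome 19 hairpin of miR-24, was 199 and 173 CPM with entinostat and 142 and 166 CPM with DMSO, again without overlap but with DMSO replicate 2 close to entinostat replicate 2. The 5p arm miR-24-1-5p of chromosome 9 is not analysed here. For miR-27b-5p the level was 27.6 and 29.001 CPM with entinostat, against 26.8 and 24.9 CPM with DMSO, resting on 14 to 25 counts per library.

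The 5p arms of miR-23 were near the limit of detection and fell below the count filter. Counts of miR-23a-5p were 8 and 14 with entinostat, against 8 and 3 with DMSO. Counts of miR-23b-5p were 5 and 3 with entinostat, against 14 and 9 with DMSO. Relative to library size, the first was higher and the second lower in both entinostat libraries, but these counts are too few for the test across miRNAs and no fold is given. Summed over both paralogs, the miR-23 5p arms came to 23.9 and 22.4 CPM with entinostat and 23.5 and 21.4 CPM with DMSO, which overlap.

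In order of level the members ran miR-24-3p, miR-23a-3p, miR-27a-3p, miR-27b-3p, miR-23b-3p, miR-27a-5p and miR-24-2-5p, then miR-27b-5p and last the miR-23 5p arms. Neighbours in this order did not overlap over the 4 libraries, with the exceptions of miR-27a-3p against miR-27b-3p and of miR-23a-5p against miR-23b-5p. In entinostat replicate 2, miR-27b-3p was above miR-27a-3p.

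**Figure D1:**
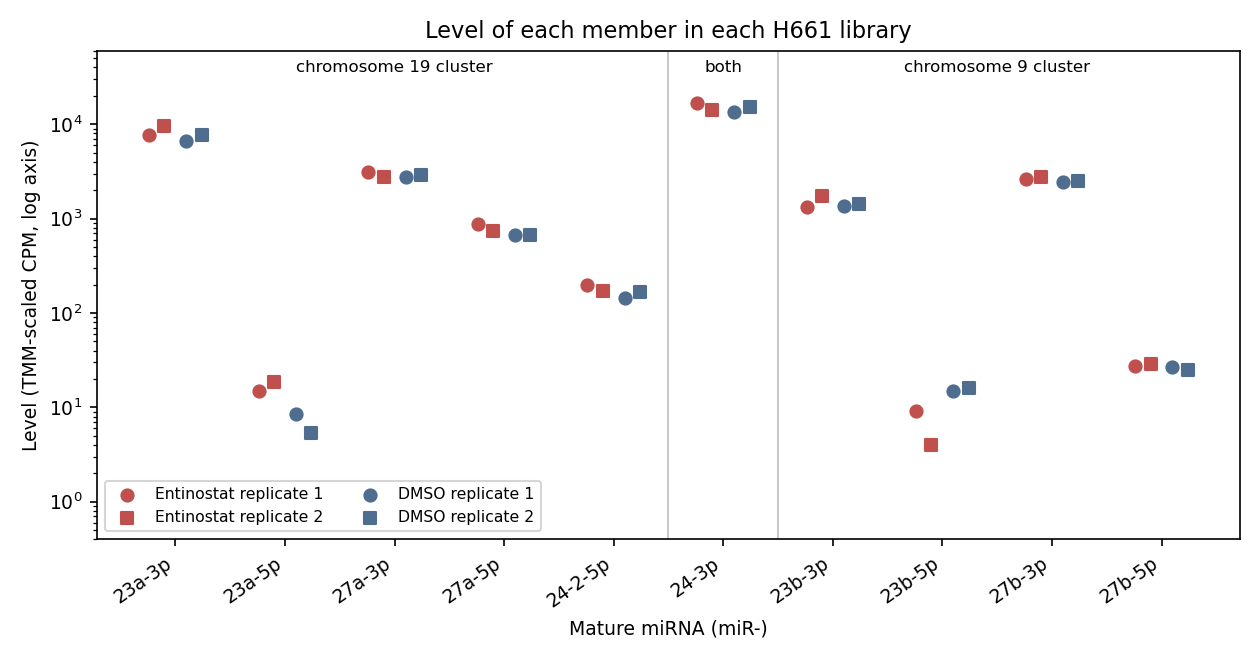
Level of each of the 10 members (TMM-scaled CPM, log axis) in each library, with entinostat libraries in red and DMSO libraries in blue, and each point 1 library. The members cover more than 3 orders of magnitude, from miR-24-3p at 13388 to 16761 CPM down to the miR-23 5p arms, and differences between treatments are small beside differences between members.

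No member passed the threshold between entinostat and DMSO, and all tested members lay slightly above 0. The edgeR quasi-likelihood test, with Benjamini-Hochberg adjustment over all 401 tested miRNAs, called 0 of the 8 tested members at an adjusted p of 0.05, where the background over all tested miRNAs was 0%. Without adjustment 27 miRNAs had a p under 0.05 in this test and 11 in DESeq2, which also called 0. Of the 8 tested members, 1 (miR-23a-3p) was higher at an unadjusted p under 0.05, against 2.99% of all tested miRNAs. In 5 of the 8 both entinostat libraries lay above both DMSO libraries, which held for 20.7% of all tested miRNAs. In 0 of the 8 did both lie below, which held for 20.0% of all tested miRNAs. A log2 fold change above 0 was found for 8 of 8 members and for 51.9% of all tested miRNAs. The median log2 fold change was 0.13 over these members and 0.00466 over all tested miRNAs. With upper quartile scaling both medians moved up, to 0.25 and 0.12. The 2 members left out by the filter are not in these counts, and the members were chosen with such values known, so no test is attached to the list.

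Among the guide arms, the fold change of miR-23a-3p was 1.22 (95% interval 1.02 to 1.47; log2 fold change 0.29, SE 0.12, edgeR adjusted p = 0.595). Without entinostat replicate 1 it was called higher (log2 fold change 0.43, edgeR adjusted p = 0.0163), and without entinostat replicate 2 it stood at 0.13. Over the alternatives that kept all 4 libraries, its adjusted p ran from 0.249 (edgeR without the low-count filter) to 0.999 (DESeq2). The near-identical miR-23b-3p had a fold change of 1.10 (0.891 to 1.36; log2 fold change 0.14, edgeR adjusted p = 0.777), which turned to -0.078 on the log2 scale without entinostat replicate 2. With both names summed, so that the split of reads between them has no effect, the miR-23 3p arms had 9084 and 11343 CPM with entinostat and 8001 and 9026 CPM with DMSO, a log2 fold change of 0.26 (-0.00586 to 0.52).

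For miR-24-3p the fold change was 1.08 (0.914 to 1.27; edgeR adjusted p = 0.777). It was 1.09 for miR-27b-3p (0.955 to 1.25; edgeR adjusted p = 0.640). For miR-27a-3p, the member nearest to no change, it was 1.04 (0.893 to 1.21; edgeR adjusted p = 0.892). Each of these intervals includes 1 and lies inside a 1.5-fold change in either direction. Without entinostat replicate 1, miR-24-3p stood at -0.018 and miR-27a-3p at -0.044 on the log2 scale. The summed miR-27 3p arms had 5787 and 5479.9 CPM with entinostat, against 5217 and 5369 CPM with DMSO, a log2 fold change of 0.084 (interval -0.097 to 0.27).

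The passenger arm miR-27a-5p had a fold change of 1.20 (0.9902 to 1.45; log2 fold change 0.26, SE 0.12, edgeR adjusted p = 0.595), and on the log2 scale it stood at 0.13 when entinostat replicate 1 was left out and at 0.39 when entinostat replicate 2 was. For miR-24-2-5p it was 1.21 (0.932 to 1.57; log2 fold change 0.28, edgeR adjusted p = 0.635), and its log2 fold change ran from 0.16 without DMSO replicate 1 to 0.38 without entinostat replicate 2. For miR-27b-5p it was 1.09 (0.626 to 1.90; edgeR adjusted p = 0.927), with the widest interval of the members. All 8 intervals lay inside a 2-fold change and 6 inside 1.5-fold, the exceptions being miR-24-2-5p and miR-27b-5p.

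**Figure D2:**
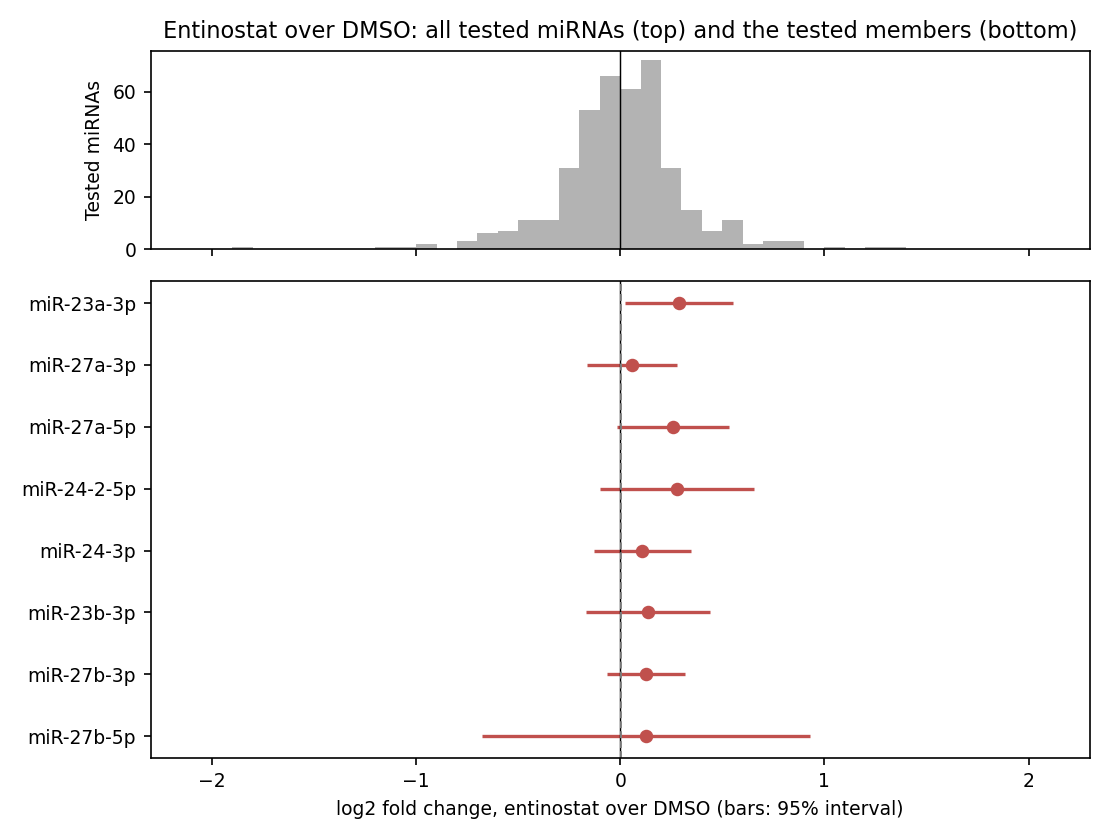
Log2 fold change of entinostat over DMSO as a histogram of the 401 tested miRNAs (top) and for the 8 tested members with 95% intervals (bottom). The dashed line is the median of all tested miRNAs; every member's point lies to its right, with 7 of the 8 intervals crossing 0 and that of miR-23a-3p just above it.

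Within the entinostat group the members did not move together, and members of the chromosome 19 cluster differed in opposite directions. Both miR-23 3p arms were higher in entinostat replicate 2 than in entinostat replicate 1, by 0.31 (miR-23a-3p) and 0.396 (miR-23b-3p) on the log2 scale. They come from different chromosomes but are near-identical, and the counting rule is not given. Reads of either could have been counted under the other name, which was not tested. Lower in entinostat replicate 2 were miR-24-3p (-0.24 on the same scale), miR-24-2-5p (-0.20), miR-27a-3p (-0.20) and miR-27a-5p (-0.26). The chromosome 9 arms miR-27b-3p (0.053) and miR-27b-5p (0.071) were slightly higher there, the same direction as miR-23b-3p of that chromosome. For 5 of the 8 tested members the difference between the entinostat libraries exceeded the fold change between treatments, and for 2 of the 8 the difference between the DMSO libraries did. Between the DMSO libraries 7 of the 8 were higher in replicate 2, miR-27b-5p being the exception. The share over all tested miRNAs was not computed for any of these counts. A difference between single libraries also varies more than a difference between group means.

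Ratios within a cluster, which do not depend on scaling, restate the same counts and are not a second observation. On chromosome 19, miR-23a-3p was 2.48 and 3.52 times miR-27a-3p with entinostat, against 2.41 and 2.64 times with DMSO. On chromosome 9, miR-23b-3p was 0.495 and 0.628 times miR-27b-3p with entinostat, against 0.546 and 0.574 times with DMSO. As a share of the 2 chromosome 19 arms, miR-23a-3p was 77.9% in entinostat replicate 2 (77.0 to 78.7%), above the other 3 libraries at 70.7 to 72.5%. These ratios were chosen after the values were seen and are given without a test.

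**Figure D3:**
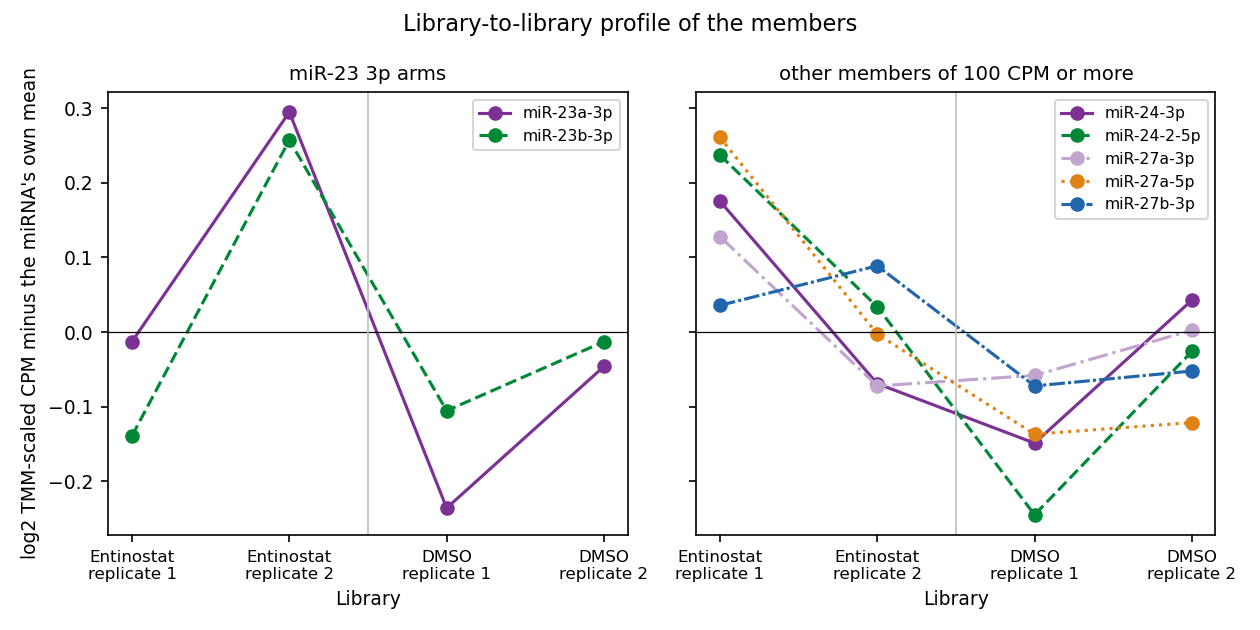
Log2 TMM-scaled CPM of 7 members in each library, relative to the miRNA's own mean over the 4 libraries, with lines joining the points of 1 miRNA. The miR-23 3p arms peak in entinostat replicate 2 (left), whereas 4 of the 5 others, all except miR-27b-3p, are highest in entinostat replicate 1 (right).

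The clearest contrast inside the group was between the arms of miR-27a and miR-27b. The hairpins are printed here with both mature arms in capitals, 5p first (RefSeq, GRCh38.p14), MIR27A from the minus strand at chr19:13836440-13836517 and MIR27B from the plus strand at chr9:95085445-95085541.
MIR27A: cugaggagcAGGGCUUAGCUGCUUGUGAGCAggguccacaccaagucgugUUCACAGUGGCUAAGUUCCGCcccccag
MIR27B: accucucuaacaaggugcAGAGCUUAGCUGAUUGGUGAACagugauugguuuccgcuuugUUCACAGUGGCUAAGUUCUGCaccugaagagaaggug

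The 5p arm took 21.9% (20.2 to 23.7%) and 21.2% (19.6 to 22.8%) of the miR-27a counts with entinostat, against 19.5% (18.1 to 20.9%) and 19.02% (17.3 to 20.8%) with DMSO. In miR-27b it took 1.03% (0.578 to 1.69%) and 1.04% (0.655 to 1.58%) with entinostat, against 1.08% (0.698 to 1.58%) and 0.990% (0.542 to 1.66%) with DMSO. The intervals of the miR-27a share lay above those of the miR-27b share in all 4 libraries. While the 3p arms were about equal, with miR-27a-3p at 0.993 to 1.18 times miR-27b-3p, miR-27a-5p was 25.0 to 31.9 times miR-27b-5p. The 5p arms differ at 8 of the 22 positions compared, and library making recovers sequences unequally. How far recovery, or the split of 3p reads between names, enters this contrast was not tested.

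Between treatments the 5p share of miR-27a was 2.28 percentage points higher with entinostat, in 2 of 2 libraries (two-sided exact permutation p = 0.333, adjusted 0.429), and the intervals of the single libraries overlapped in part. That of miR-27b was 0.00414 points higher (exact p = 1). The share of miR-24-2-5p, set against all miR-24-3p from both hairpins, was 1.17% and 1.21% with entinostat and 1.05% and 1.07% with DMSO (exact p = 0.333). For miR-23a the 5p share was 0.189% and 0.192% with entinostat, against 0.128% and 0.0703% with DMSO, and for miR-23b it was 0.696% and 0.228%, against 1.103% and 1.107% (exact p = 0.333 for each). These miR-23 shares rest on 3 to 14 counts of the 5p arm.

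As counted by name, the 3p paralogs were unequal in miR-23 and about equal in miR-27. They are near-identical and the counting rule is not given, so the intervals below do not cover reads counted under the wrong name. Of the miR-23 3p counts, miR-23a-3p held 85.6% (84.5 to 86.5%) and 84.8% (84.0 to 85.5%) with entinostat, against 83.2% (82.3 to 84.1%) and 84.1% (83.1 to 85.1%) with DMSO. Of the miR-27 3p counts, miR-27a-3p held 54.2% (52.4 to 56.0%) and 49.8% (48.3 to 51.4%) with entinostat, against 52.9% (51.4 to 54.3%) and 53.6% (51.8 to 55.3%) with DMSO. The first was 1.49 points higher with entinostat in 2 of 2 libraries (exact p = 0.333), while in the second entinostat replicate 2 stood below the other 3 libraries (exact p = 1). Leaving out miR-24-3p, the chromosome 19 cluster supplied 75.0% and 74.6% of the members' counts with entinostat, against 72.7% and 74.0% with DMSO (exact p = 0.333).

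**Figure D4:**
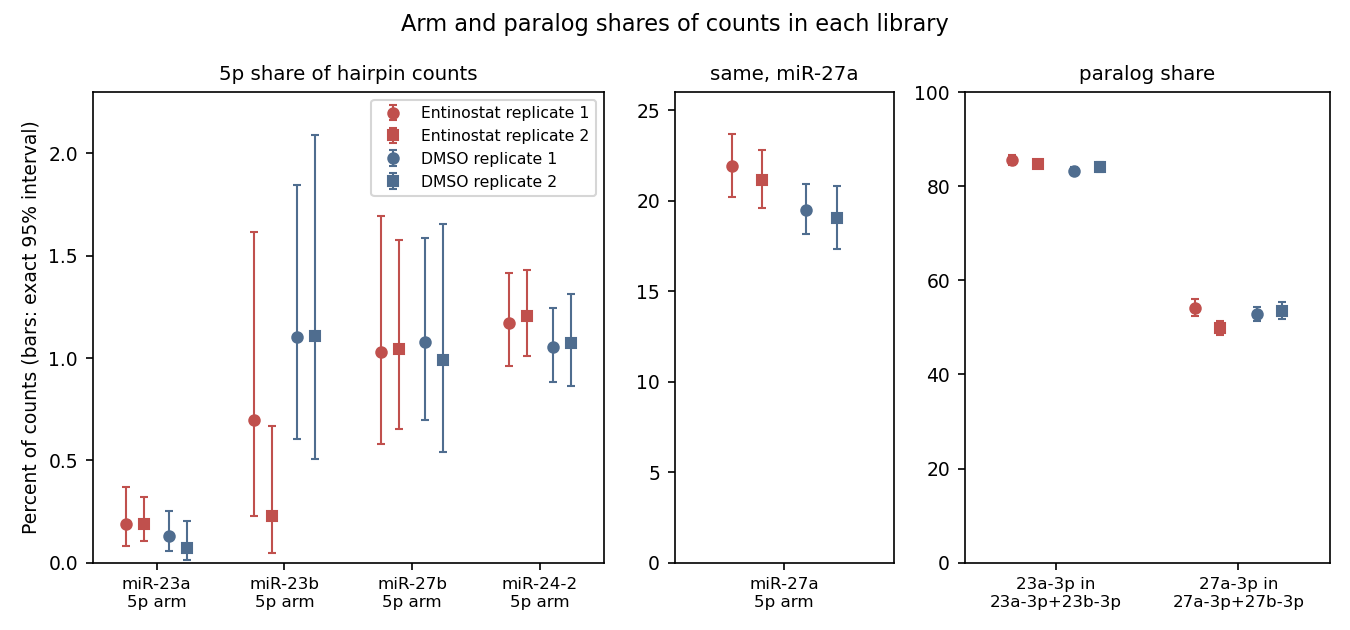
Percent of counts in each library taken by the 5p arm (left and middle panels, with different scales) and by the a paralog of the miR-23 and miR-27 3p arms (right). Bars are exact 95% intervals. For miR-23a, miR-23b, miR-27a and miR-27b the 5p share is of both arms of the name. For miR-24-2 it is set against miR-24-3p from both miR-24 hairpins, so it is not the arm share of 1 hairpin. The miR-27a 5p arm takes 19.02 to 21.9%, while the 5p arms of miR-23a, miR-23b, miR-27b and miR-24-2 take at most 1.21%.

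None of the neighbouring miRNAs passed the test either. The hairpins of miR-181c and miR-181d lie 38039 and 38215 bases from the chromosome 19 cluster on the opposite strand. Of these, miR-181d-5p had 199 and 239 CPM with entinostat, against 164 and 205 CPM with DMSO (log2 fold change 0.28, -0.12 to 0.67; edgeR adjusted p = 0.635), and miR-181c-3p had 69.9 and 51.4 CPM with entinostat, against 59.9 and 41.0 CPM with DMSO (log2 fold change 0.196, edgeR adjusted p = 0.861). Both overlapped between treatments. In the test 0 of the 6 listed arms of miR-181c, miR-181d and miR-3074 were called, with 3 of the 6 tested.

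The hairpin of miR-3074 is annotated on the strand opposite MIR24-1, and its 5p arm is complementary to 20 bases of miR-24-3p, shown in the sequence below with its own seed in capitals.
miR-3074-5p: gUUCCUGCugaacugagccag
Its level was 104.9 and 118.6 CPM with entinostat, against 116.7 and 110.4 CPM with DMSO (log2 fold change -0.020, -0.43 to 0.39; edgeR adjusted p = 0.983). The libraries held 114.8 to 159.8 times as much miR-24-3p. The neuron-enriched miR-128-3p carries the miR-27 seed shifted by 1 base, at bases 1 to 7 (capitals).
miR-128-3p: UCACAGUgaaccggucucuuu
It had 6831 and 5645 CPM with entinostat, against 6824 and 7006 CPM with DMSO, or -0.15 on the log2 scale (-0.38 to 0.082; edgeR adjusted p = 0.640), with entinostat replicate 2 the lowest and the treatments overlapping.

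The library profile most like that of miR-24-3p, among 92 other miRNAs of 1000 CPM or more, was that of miR-30a-3p, followed by miR-21-5p and miR-148a-3p, at root mean square log2 distances of 0.041, 0.0429 and 0.0519 over the 4 libraries. The closest other member, miR-27a-3p, was at 0.055 and miR-23a-3p at 0.214. With 4 libraries this likeness is a description only.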

How the data were processed

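Per the labels' protocols, total RNA (Trizol, 1 µg) entered small RNA libraries built with NEB reagents. The submitters' processing notes name bcl2fastq 2.18. Not given in the sources used here: the aligner, counting rule, annotation and build. The authors deposited whole-number counts per mature miRNA name and a CPM table. The deposited CPM equals count over column total within 0.0001 in 100% of values and was used for that check only. All columns matched a sample by title.

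Counts were tested with edgeR 4.0.16 (R 4.3.3): TMM scaling, filterByExpr defaults (minimum count 10, minimum total 15; 401 of 826 rows tested), quasi-likelihood test, treatment as the only term, Benjamini-Hochberg adjustment over all tested rows, threshold 0.05. Every fold change has entinostat on top and a 95% interval. The common dispersion gave a coefficient of variation of 8.05%. The fit was also run on data simulated with a common dispersion for all miRNAs and changes of 1.5-fold or more. That run does not cover changes as small as those of the members. Shares were compared by two-sided exact permutation over libraries, with Python 3.11.15 and SciPy 1.17.1. Alternatives covered scaling, filter, DESeq2 1.42.0, a replicate block, each library left out, and summed paralogs. Sequences were matched by name in RefSeq tables. Named miRNAs were all members, fixed neighbours, miRNAs sharing a member's seed at or 1 base beside it, and the 3 profiles nearest the most abundant member. Members and lists were chosen with earlier results of these data known.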

Additional observations from a re-analysis of the deposited data

How the results depend on the processing

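Of 172 recomputed values, 161 were labelled unchanged. For fold changes and shares this meant the same direction and side of the threshold. For counts it meant a ratio within 1.5-fold, and for the members' median a shift below the spread between libraries. The shares could not cross the threshold, because their exact permutation p cannot fall below 0.333. Each sum of paralogs was entered under both names, so the 172 values are not independent checks. With upper quartile factors the members' median log2 fold change was 0.25, against 0.13 with TMM, and that of all tested miRNAs was 0.12; relative to that median the members stood at 0.13 in both scalings. Leaving out 1 library at a time gave 0 to 6 calls over all tested miRNAs and 0 to 1 among the members, with the 6 and the 1 (miR-23a-3p, log2 fold change 0.43) without entinostat replicate 1. The members' median then ran from 0.14 to 0.19 and the number above 0 from 6 to 8. Signs turned for miR-24-3p (-0.018) and miR-27a-3p (-0.044) without entinostat replicate 1 and for miR-23b-3p (-0.078) without entinostat replicate 2; their ranges ended at 0.23, 0.16 and 0.32. The treatment difference in the 5p share of miR-27b ran from -0.0389 to 0.0472 points, with -0.00222 without entinostat replicate 2, and that in the miR-27a-3p share of miR-27 from -3.38 to 0.997 points. The cause was not tested, and where 1 library of a treatment was left, it was taken to vary like the others. The replicate numbers are not said to mark a pairing, and deviations of same-numbered libraries had a correlation of -0.13 over 237 miRNAs of 100 CPM or more. A replicate block called 0 miRNAs and 0 members, with the members' median at 0.13, and crossed numbers, added after seeing the data, also called 0. Without the low-count filter, with DESeq2, with library size alone and with size factors of the DESeq2 kind, 0 were called. Depth limits miR-27b-5p and the miR-23 5p arms most.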
